A study of Mus musculus with 8 samples.

Results

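Gene expression in neurotensin reporter cells of the mouse olfactory bulb was compared between embryonic day 13 (E13) and 3 later ages, E15, E17 and the day of birth (P0). The comparison used 4 of the 8 libraries of the study, the GFP-positive ones, with 1 library at each age. A gene counted as higher or lower at E13 when its value lay above or below that of all 3 later GFP-positive libraries and its highest value was at least 5 FPKM (fragments per kilobase, corrected for library size). Of 11200 table rows that reached 5 FPKM, after rows for small RNAs were left out, 3217 (28.7%) were higher at E13, 3172 (28.3%) were lower and 4811 lay between. A gap of at least 2-fold between E13 and the nearest later library, taken on values of FPKM + 1, was present in 336 rows that were higher (3%) and 345 that were lower (3.08%). Of these, 178 and 224 were single genes with a gene name, and the others were predicted, clone-named or multi-gene rows.

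The mice were of a mixed 129 and C57BL/6J background and carried, in 1 or both copies, the NTS-IRES-tauGFP allele, in which the neurotensin gene (Nts) also drives a tau-GFP fusion. The GFP-positive libraries, called reporter cells below, are sorted cells of this genotype at E13, E15, E17 and P0, and the GFP-negative libraries are the cells without the signal, sorted from bulbs of the same genotype and ages. No animal in the series lacked the allele, per the labels. Bulbs were dissociated with papain and sorted by flow cytometry, and the sources used here do not give the number of embryos or pups per sort. The source field reads GFP-positive for all 8 samples, and the titles and cell population labels were used instead. With 1 library per age, a difference between E13 and the later ages cannot be told apart from a difference between preparations of those days.

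Mitral and tufted cells are the glutamatergic projection neurons of the olfactory bulb, which receive input from olfactory sensory axons and send axons to the olfactory cortex. They are born before the local GABAergic interneurons, and mitral cells are generated before most tufted cells. The early neurons leave the ventricular zone, grow an axon into the lateral olfactory tract and later form dendrites in the glomeruli. Reporter cells sorted at E13 are thus an earlier sample of such a population than those sorted at birth, although the sort reads the activity of Nts and not a cell's birth date.

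The reporter gene separated the populations as labelled in all 8 libraries. Nts was at 1036, 955, 673 and 859 FPKM in the GFP-positive libraries at E13, E15, E17 and P0, and at 1.92, 4.54, 5.59 and 4.33 FPKM in the GFP-negative ones. Its E13 value was the highest of the GFP-positive libraries by a small gap, and the log2 difference between E13 and the mean of the later ages was 0.34 (SE 0.26). All log2 differences below are on log2(FPKM + 1), E13 minus the mean of the 3 later libraries, and understate the change of genes with low values. Standard errors come from limma, in which the single E13 library is assumed to vary like the later ages of both populations. Mapt, which encodes tau, was at 274, 416, 504 and 379 FPKM and lowest at E13. The sources used here do not say whether reads of the tau part of the reporter were counted under Mapt.

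The implied depth of the GFP-positive libraries, read from the steps of low FPKM values, was 9450000, 8750000, 6280000 and 7190000 fragments in age order. An FPKM of 1 on a transcript of 2 kb then stood for 12.6 to 18.9 reads in these libraries, and the GFP-negative libraries lay between 5490000 and 9010000 fragments. The scale is relative, since a scaling between libraries may be part of the deposited values.

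**Figure D1:**
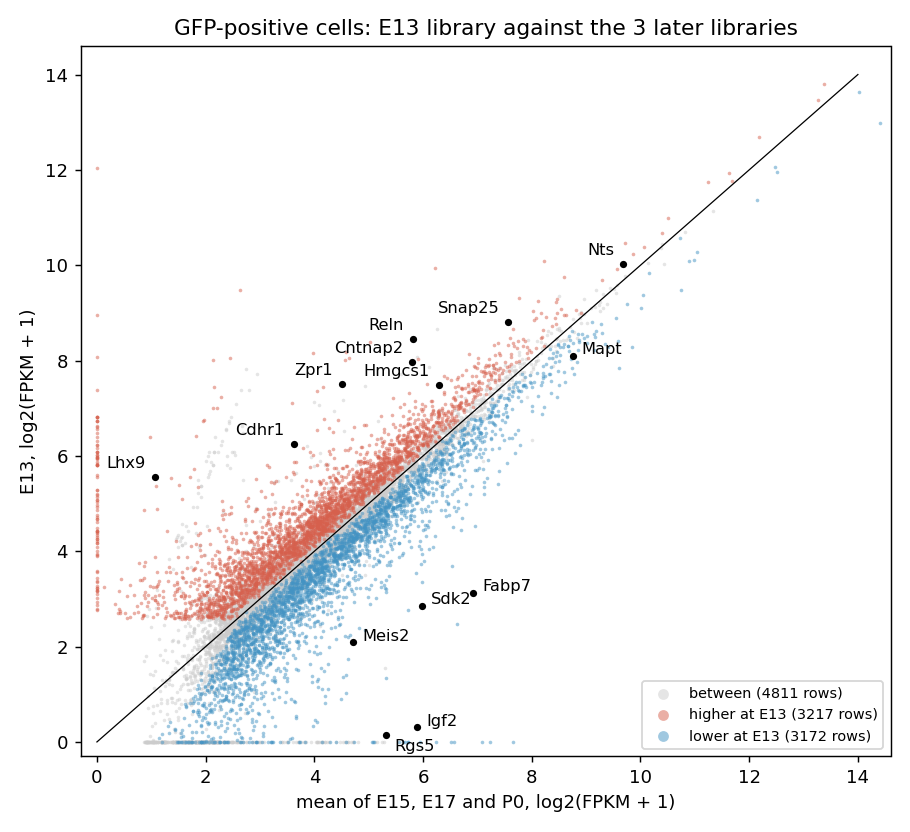
Each point is a table row of at least 5 FPKM in the highest GFP-positive library, with the mean log2(FPKM + 1) of E15, E17 and P0 on the horizontal axis and that of E13 on the vertical axis, and equality drawn as a line. Red rows (3217) were above and blue rows (3172) below all later libraries, and named genes such as Reln, Lhx9, Igf2 and Rgs5 lie far from the line.

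About as many markers of mitral and tufted cells were highest at E13 as were not. Of 13 listed markers that reached 5 FPKM, 7 were higher at E13, 3 were lower and 3 lay between. Over all rows the shares were 28.7% higher and 28.3% lower. Those higher included Nts and the markers Reln, Cdhr1 and Cntnap2 given for these cells. The others were Kcna2, Slc17a7 and Thy1. Nts drives the reporter of the sort, and Reln, Cdhr1 and Cntnap2 were given in advance. The share of higher markers above that of all rows thus rests on members chosen beforehand. The median log2 difference over 14 tested markers was 0.62, against -0.02 over all 15003 rows tested. In GFP-negative cells the median over these 14 was larger, at 0.94, against 0.01 over all rows tested. Of 9 listed markers that reached 5 FPKM there, 7 were higher at E13 and 1 was lower. Among rows of at least 5 FPKM in both populations, 28.7% were higher and 27.1% lower in GFP-negative cells. Reln, the extracellular glycoprotein reelin that guides neuronal positioning, lies on chromosome 5 (21884454 to 22344702, minus strand, GRCm38) and was at 349, 55, 64.8 and 47.5 FPKM. Its E13 library stood clear of the 3 later ones, which lay close together, and the log2 difference was 2.64 (SE 0.49). Cdhr1, a cadherin-related protein used as a mitral and tufted cell marker (chromosome 14, 37077857 to 37098347, minus strand), measured 75.4, 6.68, 13.1 and 16.1 FPKM. Among its later libraries the order was upward from E15 to P0, so the E13 value did not begin a steady decline. Cntnap2, a neurexin-family adhesion protein of axons, was at 249, 87.8, 58.3 and 31.4 FPKM and was lower in each successive library.

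The other markers were divided, with Slc17a7 and Thy1 among those also higher at E13. The vesicular glutamate transporter gene Slc17a7 was at 21.4, 2.53, 6.71 and 2.78 FPKM, with a log2 difference of 2.26 (SE 0.58), while Slc17a6, the second transporter of that family, was at 59.2, 41.9, 44.5 and 59.2 FPKM with nearly equal values at E13 and P0. Thy1, a glycoprotein of projection neurons, was at 6.53, 2.37, 3.72 and 3.07 FPKM. Tbr1, a T-box factor of glutamatergic neurons, was at 325, 340.1, 307 and 267 FPKM and lay between. Eomes, a T-box factor of intermediate progenitors and of mitral and tufted cells, was at 69.3, 149, 161 and 150.4 FPKM and thus lowest at E13, as were Barhl2 and Id2. Tbx21, another T-box factor of these neurons, stayed under 5 FPKM in every GFP-positive library, and Slc17a8 was listed at 0 in all 4. Reln, Cdhr1 and Cntnap2 were also highest at E13 among the GFP-negative libraries, at 32.6, 6.85, 2.81 and 7.58 FPKM for Reln, 4.38, 0.269, 0.0883 and 1.1 FPKM for Cdhr1 and 142, 74, 30.6 and 23.3 FPKM for Cntnap2.

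None of these markers passed the test across all rows, and 5 of the 14 tested had an unadjusted p under 0.05. In limma with Benjamini-Hochberg adjustment over 15003 rows, the adjusted p was 0.262 for Reln, 0.379 for Cdhr1 and 0.551 for Cntnap2. The fit called 50 rows (0.333%) between E13 and the later GFP-positive libraries, 46 higher (0.307%) and 4 lower (0.0267%), and 1250 rows had an unadjusted p under 0.05. Of the 50, 44 were at 0 in all 3 later GFP-positive libraries, 40 were short noncoding RNAs by their annotation, and 41 of the 46 with an annotated position spanned under 200 bases. The only called row with a single gene name was Zpr1, a zinc finger protein gene on chromosome 9 (46273064 to 46282643), at 181, 26.9, 18.8 and 20.4 FPKM in reporter cells, set against 16.3, 19.5, 26.4 and 15.8 FPKM in GFP-negative cells. The log2 difference of Zpr1 was 3.0 (SE 0.35) and its adjusted p 0.0429 (limma), which ranged from 0.0214 to 0.176 over the alternative settings and did not pass when any 1 of the 6 later libraries was left out. In simulated data of this design, changes of 1 log2 unit were never recovered. Changes of 2 units were recovered in 26% and those of 3 units in 81% of changed rows. The changed rows all had a mean log2(FPKM + 1) above 3, so recovery of genes with lower means was not tested. The values below are thus a description of single libraries.

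Transcription factor genes were among the genes with the largest gaps in both directions. Lhx9, a LIM-homeodomain factor gene on chromosome 1 (138825186 to 138848577, minus strand), measured 45.8, 2.82, 0.512 and 0.578 FPKM, a log2 difference of 4.49 (SE 0.84). E13 stood apart, and the E15 value in turn lay above those of E17 and P0. The GFP-negative libraries had the same order for E13 and E15, at 20.7, 2.92, 0.317 and 0.384 FPKM. Sox6, an SRY-box factor, was at 12.5, 1.34, 0.594 and 0.316 FPKM, and its GFP-negative values of 41.6, 22.2, 8.07 and 3.28 FPKM were higher at every age. Nhlh2, a basic helix-loop-helix factor of early neurons, was at 12, 2.02, 0.553 and 0.307 FPKM, and Foxp2, a forkhead factor, was at 26.6, 5.75, 5.23 and 2.13 FPKM. Lmo4, a LIM-only transcriptional cofactor, was at 182, 67.9, 52 and 82.6 FPKM.

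Several other factor genes showed the opposite order. Meis2, a TALE homeobox factor abundant in bulb interneurons, was at 3.25, 18.3, 26.2 and 33.8 FPKM, with its E13 value below the others by a wide gap, and the GFP-negative libraries held 237, 455, 672 and 758 FPKM. Pou3f2 was at 8.28, 26.8, 34.6 and 63.3 FPKM and Pou3f3 at 32.1, 81.6, 101 and 116 FPKM, both POU factors of newborn cortical neurons, and both were higher in each successive library. Rorb, a nuclear receptor of upper cortical layers, was at 3.11, 7.74, 13.8 and 16.8 FPKM. Over the list of upper-layer cortical genes 3 of 12 members were higher and 6 lower at E13. For the deep-layer list 3 of 14 were higher and 8 lower, beside 28.7% and 28.3% of all rows. Nfix, a nuclear factor I gene, was at 25.8, 105, 76.1 and 75.5 FPKM and highest at E15, and Bcl11a, a zinc finger factor, at 262, 388, 569 and 344 FPKM. Etv5, an ETS factor that responds to growth factor signalling, was at 1.15, 11.8, 22.6 and 21.7 FPKM, while its GFP-negative values were close at all 4 ages (60.5, 58.9, 43 and 65.8 FPKM).

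**Figure D2:**
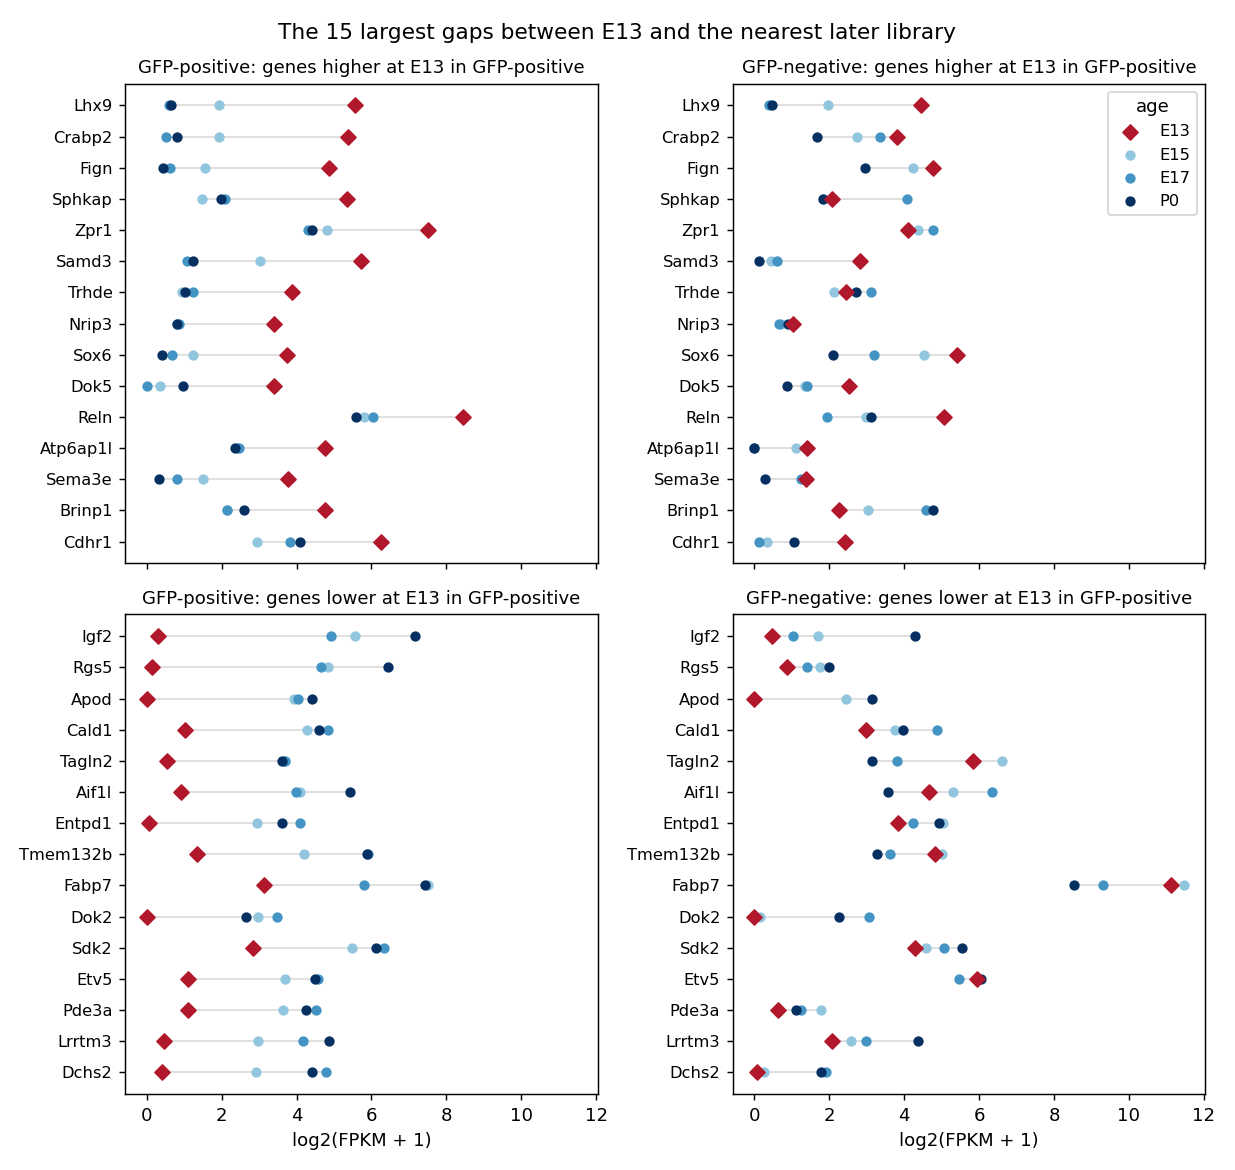
The 15 named genes with the largest gap between E13 (red diamonds) and the nearest later library (blue circles, darker with age) in each direction, as log2(FPKM + 1), with 1 point per library. GFP-positive libraries on the left define the genes. In the GFP-negative libraries on the right E13 is not outside the later range for several of them, such as Zpr1, Trhde and Fabp7.

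Among other genes with large gaps, Crabp2, a carrier of retinoic acid to the nucleus, was at 40.4, 2.82, 0.436 and 0.762 FPKM, a log2 difference of 4.28 (SE 0.81). Fign, a microtubule-severing enzyme, was at 28.2, 1.96, 0.529 and 0.35 FPKM. Sphkap, an anchoring protein of protein kinase A, was at 39.8, 1.81, 3.3 and 2.99 FPKM. In each of these the E13 library stood alone and the 3 later ones were all near the bottom of the scale. Trhde, the peptidase that degrades thyrotropin-releasing hormone, was at 13.8, 0.911, 1.35 and 1.03 FPKM, and its later values lay close together. Brinp1, a neural protein induced by bone morphogenetic protein and retinoic acid, was at 26.2, 3.41, 3.43 and 5.05 FPKM, whereas in GFP-negative cells it was lowest at E13 (3.77, 7.11, 22.7 and 26.2 FPKM).

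Secreted factors were split between the directions. The growth factor list had 9 of 21 members higher and 9 lower at E13, beside 28.7% and 28.3% of all rows. Among the higher ones, Fst, the activin antagonist follistatin, was at 28.2, 5.22, 6.09 and 1.81 FPKM, and Fgf9, a fibroblast growth factor, was at 32.4, 8.7, 3.89 and 1.53 FPKM. Gfra2, the receptor subunit for neurturin, was at 7.07, 0.627, 1.31 and 1.19 FPKM. Wnt7b, a Wnt ligand, was at 9.2, 2.08, 0.849 and 2.79 FPKM. Of 11 Wnt pathway genes 3 were higher and 7 lower, the latter including the receptor genes Fzd1 (13.4, 25.4, 39.8 and 35.7 FPKM) and Fzd2 (1.03, 7.65, 5.54 and 2.28 FPKM), and the secreted modulator Sfrp2 (0.351, 4.26, 7.38 and 8.85 FPKM). Sfrp2 was highest at E13 in the GFP-negative libraries (13.7, 9.11, 5.03 and 7.98 FPKM).

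Of 34 genes for neurite growth and cytoskeleton, 19 were higher at E13 and 6 were lower, beside 28.7% and 28.3% of all rows, and the median log2 difference was 0.30 in GFP-positive and 0.06 in GFP-negative cells. Without the P0 library the GFP-positive median was 0.15. Gap43, a growth cone protein, was at 634, 363, 238 and 117 FPKM and lower in each successive library. The same order held for Ina, the neurofilament-related protein internexin, whose locus overlaps that of Nt5c2, at 605, 461, 291 and 159.9 FPKM, and for Stmn2, a tubulin-binding protein of growth cones, at 1420.0, 1097, 859 and 629 FPKM. Kif5c, a kinesin heavy chain of axonal transport, was at 280.3, 131, 139 and 81.8 FPKM, and Klc1, a kinesin light chain, at 194, 107, 101 and 86.2 FPKM. Nefl was at 13.7, 4.72, 1.4 and 0.653 FPKM and Nefm at 10.6, 4.42, 1.11 and 0.795 FPKM, but these neurofilament genes overlap on opposite strands and their reads may not be told apart.

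Axon guidance genes were divided, with 15 of 39 higher and 16 lower, beside 28.7% and 28.3% of all rows. The repulsive semaphorin Sema3e was at 12.8, 1.82, 0.76 and 0.248 FPKM and its relative Sema3a at 14.2, 33.8, 64.1 and 50.1 FPKM, in opposite orders. Unc5b, a netrin receptor, was at 15.3, 2.67, 1.88 and 3.87 FPKM with E13 clear of the others. Dcc, the netrin receptor of attraction, was lowest at E13, at 92.7, 244, 224 and 176 FPKM. Sema6a, a transmembrane semaphorin, was at 101, 50.4, 44.3 and 34.2 FPKM, and the ephrin receptor gene Ephb1 at 4.47, 11, 16.9 and 13.4 FPKM. Nrp2, a semaphorin coreceptor, was at 127, 92.3, 89.2 and 63.6 FPKM. No axon guidance gene passed limma after adjustment.

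Among adhesion molecules lower at E13, Sdk2, a sidekick adhesion protein that in the mouse retina matches synaptic partners, was at 6.19, 44.1, 79.2 and 69 FPKM, a log2 difference of -3.14 (SE 0.47). Dchs2, a cadherin of the dachsous family, was at 0.328, 6.57, 26.6 and 20.4 FPKM, and Lrrtm3, a synaptic organizer whose locus overlaps that of Ctnna3, was at 0.367, 6.82, 17.1 and 28.1 FPKM. Cdh20, a type II cadherin, was at 1.05, 9.24, 6.48 and 9.47 FPKM. The opposite order was seen for Pcdh19 (44.6, 9.92, 7.97 and 3.44 FPKM) and Pcdh1 (33.7, 7.69, 4.8 and 5.5 FPKM), 2 protocadherins, and for Ncam2, the olfactory cell adhesion molecule, at 52.2, 19.6, 18.3 and 15.8 FPKM. Over all cadherins and protocadherins 4 of 15 were higher and 6 lower, beside 28.7% and 28.3% of all rows.

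Most genes of the presynaptic terminal had their highest value at E13. Of 32 genes for synaptic vesicles and release 21 were higher at E13 and 2 were lower, compared with 28.7% and 28.3% of all rows. The median log2 difference over 35 tested genes was 0.48 in GFP-positive and -0.19 in GFP-negative cells. Snap25, a SNARE protein of vesicle fusion, was at 447, 224, 185 and 163 FPKM, and Syt1, the calcium sensor of release, was at 222, 121, 112 and 98.2 FPKM. Both were lower in each successive library. Sh3gl2, an endophilin of vesicle retrieval, was at 55.3, 21.3, 20.9 and 12.6 FPKM in reporter cells, set against 11.4, 12.4, 30.9 and 39.5 FPKM in GFP-negative cells, where E13 was the lowest. Syt2, another calcium sensor, was at 11.6, 2.25, 2.21 and 2.06 FPKM, with GFP-negative values of 0.366, 0.576, 5.37 and 4.92 FPKM, although its locus overlaps that of Ppp1r12b. The 2 genes of the opposite order were Cplx2, a complexin (12.9, 31.1, 39.1 and 58 FPKM), and Rims1, an active zone protein (14.1, 21.3, 31.3 and 19.2 FPKM).

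Receptors and peptides followed less uniformly. Of 10 GABA receptor and chloride transporter genes 6 were higher and 4 lower. Beside this and the following counts, 28.7% of all rows were higher and 28.3% lower. Gabbr2, a subunit of the metabotropic GABA receptor, was at 20.7, 4.5, 3.86 and 1.72 FPKM, while its partner Gabbr1 was lowest at E13, at 92.7, 104, 109.8 and 146 FPKM. Gabra3, an ionotropic receptor subunit, was at 21.4, 7.42, 9.47 and 9.34 FPKM with the 3 later libraries close together. Among glutamate receptors 3 of 16 were higher and 6 lower, the largest gap being that of the kainate receptor subunit Grik3, at 0.264, 4.05, 8.39 and 7.6 FPKM. Voltage-gated channels, 30 in all, included 13 that were higher and 8 that were lower. Of 12 neuropeptides and granins 6 were higher and 4 lower. Scg2, a granin of dense core vesicles, was at 98.8, 40.5, 32.6 and 20.3 FPKM, and Chgb, a second granin, was at 26.4, 10.9, 10.8 and 11.2 FPKM. In postsynaptic genes the split was 11 higher and 6 lower of 27, with Lrfn5, a synaptic adhesion protein, at 57.5, 14.5, 13 and 7.7 FPKM.

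The list of cholesterol synthesis and uptake genes had no member that was lowest at E13. Of 22 genes 15 were higher and 7 lay between, where 28.7% of all rows were higher and 28.3% lower. The median log2 difference was 0.64 in GFP-positive cells and -0.20 in GFP-negative cells. In the latter 4 of 22 were higher and 10 lower, beside 28.7% and 27.1% of all rows there. The individual gaps were modest, none reaching 2-fold. Promoter sequences are shown for 3 members that were higher at E13 and are transcribed from different chromosomes, because no member of the list was lowest at E13. They are the 300 bases from 250 before to 50 after the RefSeq transcript start (GRCm38.p6), read along the gene's strand, in lower case. Capitals mark the words CCAAT, the core of the nuclear factor Y motif, and CACNCCAC, a degenerate form of the sterol response element, on either strand. The regions are chr13:119690101-119690400 (plus strand) for Hmgcs1, chr8:64733529-64733828 (minus strand) for Msmo1 and chr5:114444019-114444318 (plus strand) for Mvk.
Hmgcs1: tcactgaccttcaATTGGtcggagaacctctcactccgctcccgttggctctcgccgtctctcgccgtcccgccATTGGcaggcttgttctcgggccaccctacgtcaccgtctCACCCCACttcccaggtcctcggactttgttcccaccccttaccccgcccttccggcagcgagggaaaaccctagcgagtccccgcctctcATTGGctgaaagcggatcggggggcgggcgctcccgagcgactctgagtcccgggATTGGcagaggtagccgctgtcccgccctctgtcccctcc
Msmo1: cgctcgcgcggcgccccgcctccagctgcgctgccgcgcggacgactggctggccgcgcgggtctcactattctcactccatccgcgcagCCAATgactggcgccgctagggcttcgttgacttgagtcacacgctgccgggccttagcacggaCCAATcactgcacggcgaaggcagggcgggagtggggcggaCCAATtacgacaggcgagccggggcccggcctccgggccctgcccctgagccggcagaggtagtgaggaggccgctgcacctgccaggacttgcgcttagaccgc
Mvk: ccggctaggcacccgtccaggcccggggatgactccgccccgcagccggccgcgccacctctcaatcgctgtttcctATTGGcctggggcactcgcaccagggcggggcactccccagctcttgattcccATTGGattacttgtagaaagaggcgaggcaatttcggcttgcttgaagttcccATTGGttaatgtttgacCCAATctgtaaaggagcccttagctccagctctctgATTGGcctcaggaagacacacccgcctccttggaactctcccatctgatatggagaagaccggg
The Hmgcs1 promoter holds CCAAT 4 times and CACNCCAC 1 time, the Msmo1 promoter CCAAT 3 times and the Mvk promoter CCAAT 5 times, with no CACNCCAC in these windows of Msmo1 or Mvk. Of 26 listed genes 17 had a promoter in the RefSeq table, and 16 of the 17 held CCAAT, as did 41.1% of all 27025 genes and 37.4% of all 32851 promoters in the table. CACNCCAC was in 3 of the 17 (Acat2, Hmgcs1 and Insig1), in 7.12% of all genes and in 6.24% of all promoters. The words do not overlap each other in the sequences shown, and a match is a description of the letters.

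Along the pathway, the E13 library was the highest at most steps. Hmgcs1, which makes HMG-CoA, was at 178, 92.9, 86.6 and 56.8 FPKM in reporter cells, set against 92.1, 95.7, 98.7 and 75.1 FPKM in GFP-negative cells. Mvk, mevalonate kinase, was at 30.4, 20.8, 13.4 and 13.2 FPKM, and Pmvk, the kinase that follows it, was at 33.8, 20.7, 20.6 and 10.8 FPKM. Fdps, which makes farnesyl diphosphate, was at 16.8, 9.76, 8.25 and 3.07 FPKM. In the sterol branch, Sqle, the squalene epoxidase, was at 117, 89.2, 67.6 and 56.2 FPKM and Msmo1, a sterol demethylase, at 55.9, 31.4, 29.6 and 22.9 FPKM. For Msmo1 the GFP-negative libraries had the opposite order, with E13 lowest (19.5, 33.7, 56.4 and 47.9 FPKM). Insig1, the sterol sensor of the endoplasmic reticulum, was at 42.9, 22.7, 27 and 32.8 FPKM with E17 and P0 above E15. No gene of the list passed limma after adjustment, and the largest log2 difference, that of Fdps, was 1.27.

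**Figure D3:**
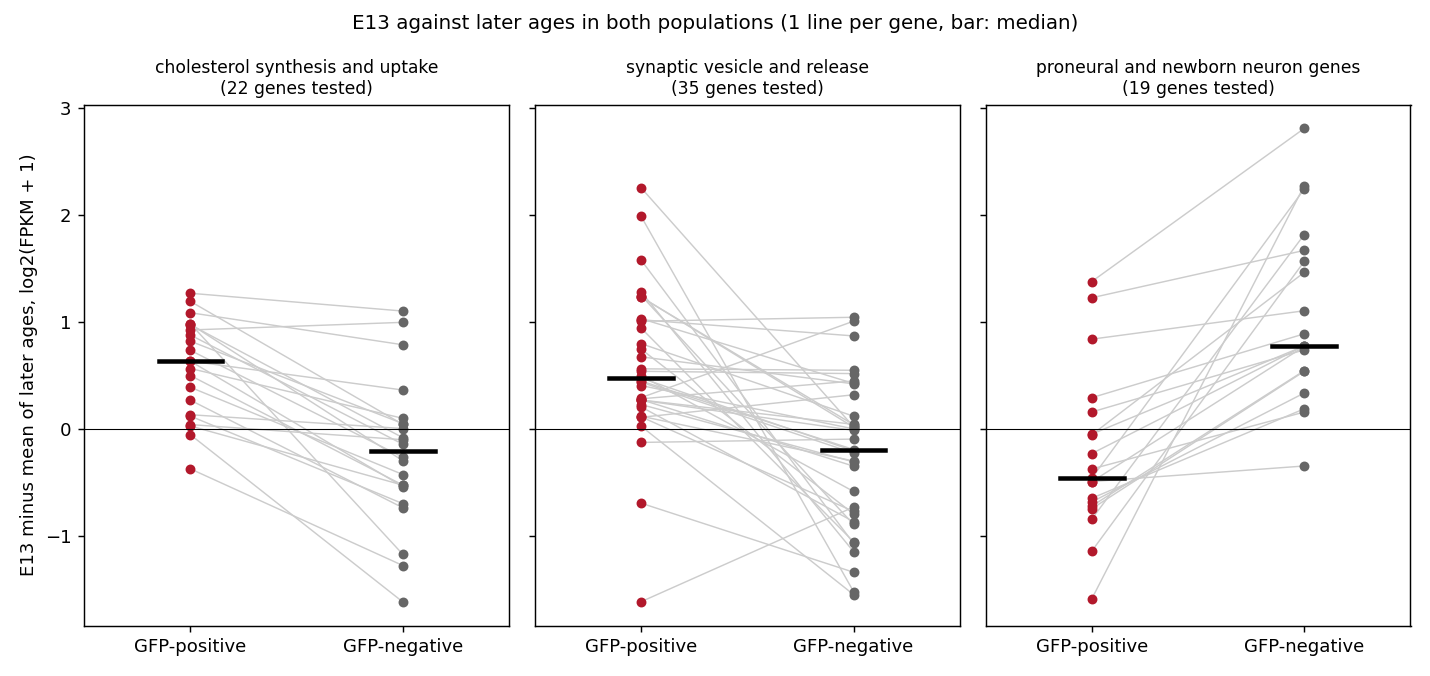
Log2 difference of E13 from the mean of the later ages for each tested gene of 3 lists, in GFP-positive (red) and GFP-negative (grey) libraries, with a line joining the values of 1 gene and a bar at the median. The medians are 0.64 and -0.20 for cholesterol genes, 0.48 and -0.19 for synaptic vesicle genes and -0.45 and 0.78 for proneural genes.

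Mitochondrial and ribosomal genes lay on opposite sides. Beside the GFP-positive counts below, 28.7% of all rows were higher and 28.3% lower. Beside the GFP-negative counts, the shares were 28.7% and 27.1%. Of 37 nuclear genes of the respiratory chain 20 were higher and 5 lower, with a median log2 difference of 0.19. In GFP-negative cells 11 of 37 were higher and 15 lower, with a median of -0.09. Ndufa9, of complex I, was at 66.8, 29, 27.9 and 34.5 FPKM. Ribosomal protein genes were lower, 20 of 34, with 3 higher and a median log2 difference of -0.32, against -0.13 in GFP-negative cells. There 18 of 34 were lower and 5 higher. Ribosomal proteins have many processed pseudogenes, so single members are uncertain. Of 18 stress and immediate early genes 10 were higher and 5 lower. The higher ones included Hspa5, a chaperone of the endoplasmic reticulum (204, 96.4, 101 and 56.6 FPKM), and Fos, an activity-dependent factor (25.5, 5.7, 4.51 and 14.3 FPKM). In GFP-negative cells Fos was lowest at E13 (3.77, 8.92, 32.4 and 33.2 FPKM). Of 21 listed genes that reached 5 FPKM there, 4 were higher and 9 lower. The median log2 difference of the list was 0.44 in GFP-positive and -0.31 in GFP-negative cells.

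**Figure D4:**
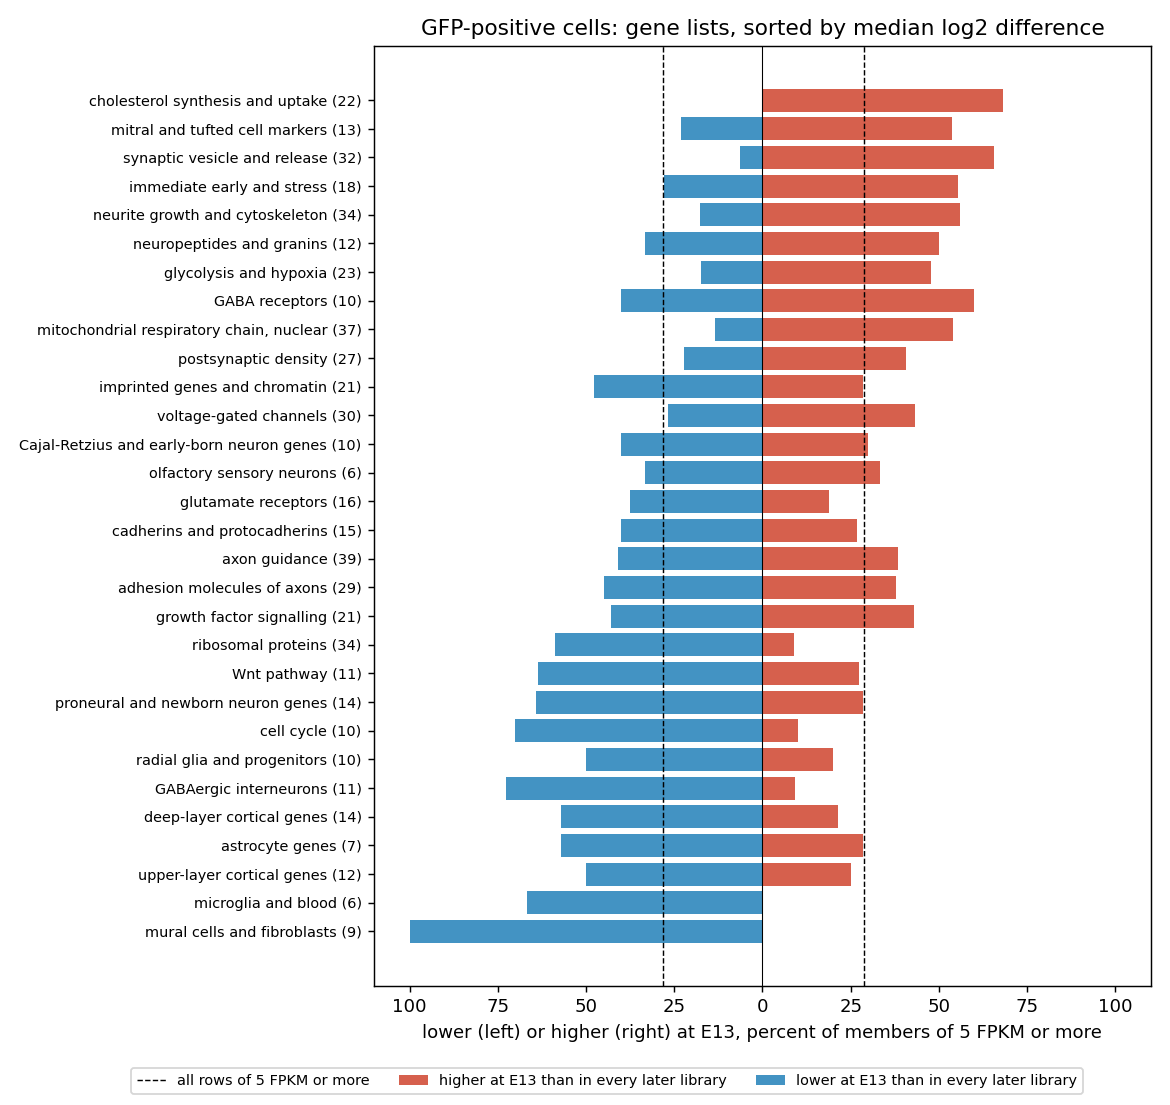
Share of members of each drawn gene list that were lower (blue, left) or higher (red, right) at E13 than in all later GFP-positive libraries. Numbers in parentheses are members of at least 5 FPKM, and dashed lines are the shares over all rows (28.7% higher and 28.3% lower). The oligodendrocyte lineage, olfactory ensheathing glia and endothelial lists, with 2, 2 and 1 such members, are not drawn. Lists are ordered by median log2 difference, from cholesterol synthesis (15 of 22 higher) at the top to mural cells and fibroblasts (9 of 9 lower) at the bottom. The mural and fibroblast members reached 5 FPKM only through later libraries.

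Markers of mural cells and fibroblasts were lower at E13. In sorted pools, fewer cells of a type and less RNA per cell cannot be told apart. All 9 markers of mural cells and fibroblasts that reached 5 FPKM were lower at E13, beside 28.3% of all rows. The whole list summed to 3.49 FPKM at E13, so each reached 5 FPKM only through a later library. This count is thus set in part by the rule. When the P0 library was left out, 4 markers met the rule. Igf2, a growth factor of mesenchyme and vessels (chromosome 7, 142650766 to 142666816, minus strand), measured 0.236, 46.5, 29.1 and 144 FPKM, a log2 difference of -5.58 (SE 1.42) (limma adjusted p = 0.429). Rgs5, a pericyte regulator of G protein signalling, was at 0.108, 27.4, 24.4 and 86.2 FPKM. Cald1, an actin-binding protein of contractile cells, was at 1.03, 18.4, 27.7 and 23.3 FPKM. Pdgfrb, Vtn, Kcnj8 and Abcc9, markers of pericytes, were listed at 0 at E13. The summed level of the list of 19 genes was 3.49, 128, 102 and 311 FPKM in reporter cells and 15.6, 30.6, 36.7 and 46.5 FPKM in GFP-negative libraries. The GFP-positive sum was thus above the GFP-negative one at each later age and below it at E13. The part of mural cells in the differences between ages was not tested. The list of 18 endothelial genes had a summed GFP-positive level between 9.96 and 20.6 FPKM.

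In the radial glia, astrocyte and cell cycle lists more members were lower than higher at E13. Beside the GFP-positive counts below, 28.7% of all rows were higher at E13 and 28.3% lower. Fabp7, a fatty acid binding protein of radial glia, was at 7.73, 183, 54.6 and 172 FPKM in reporter cells, set against 2221, 2825, 629 and 369.6 FPKM in GFP-negative cells. Slc1a3, a glutamate transporter of radial glia and astrocytes, was at 0.0653, 3.27, 6.24 and 10.5 FPKM, and Ptprz1, a receptor phosphatase of radial glia, was at 8.85, 31.3, 50.0 and 34.1 FPKM. Of 7 astrocyte genes that reached 5 FPKM 4 were lower and 2 higher, the latter including the transporter gene Slc1a2 at 113, 51.1, 57.4 and 38.3 FPKM. Of 10 radial glia genes that reached 5 FPKM 5 were lower, and 2 were higher, Lhx2 and Tnc. The summed radial glia level in GFP-positive cells was 362, 713, 401 and 568 FPKM, against 5244, 7422, 1986 and 1257 FPKM in GFP-negative cells. Of 33 cell cycle genes 10 reached 5 FPKM in GFP-positive cells, of which 7 were lower and 1 higher. Mki67, a marker of dividing cells, was at 0.181, 5.23, 0.93 and 0.63 FPKM. The summed cell cycle level was 237, 420, 314 and 318 FPKM. In GFP-negative cells all 33 reached 5 FPKM, with 19 higher and 0 lower at E13, beside 28.7% and 27.1% of all rows there. Their sum there was 1872, 1789, 880 and 596 FPKM. GABAergic interneuron genes were lower in 8 of 11 and higher in 1, with Gad2, a GABA synthesis enzyme, at 0.285, 1.0, 1.74 and 5.11 FPKM and Dlx5, an interneuron homeobox gene, at 0.259, 2.03, 1.82 and 5.33 FPKM. The summed interneuron level was 218, 315, 283 and 362 FPKM. In both populations the interneuron sum was lowest at E13. Gad2, Dlx5 and Mki67 reached 5 FPKM only through a later library, so the counts of lower members are set in part by the rule. Of 6 microglia and blood genes 4 were lower, and the hemoglobin genes among them share near-identical sequence.

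**Figure D5:**
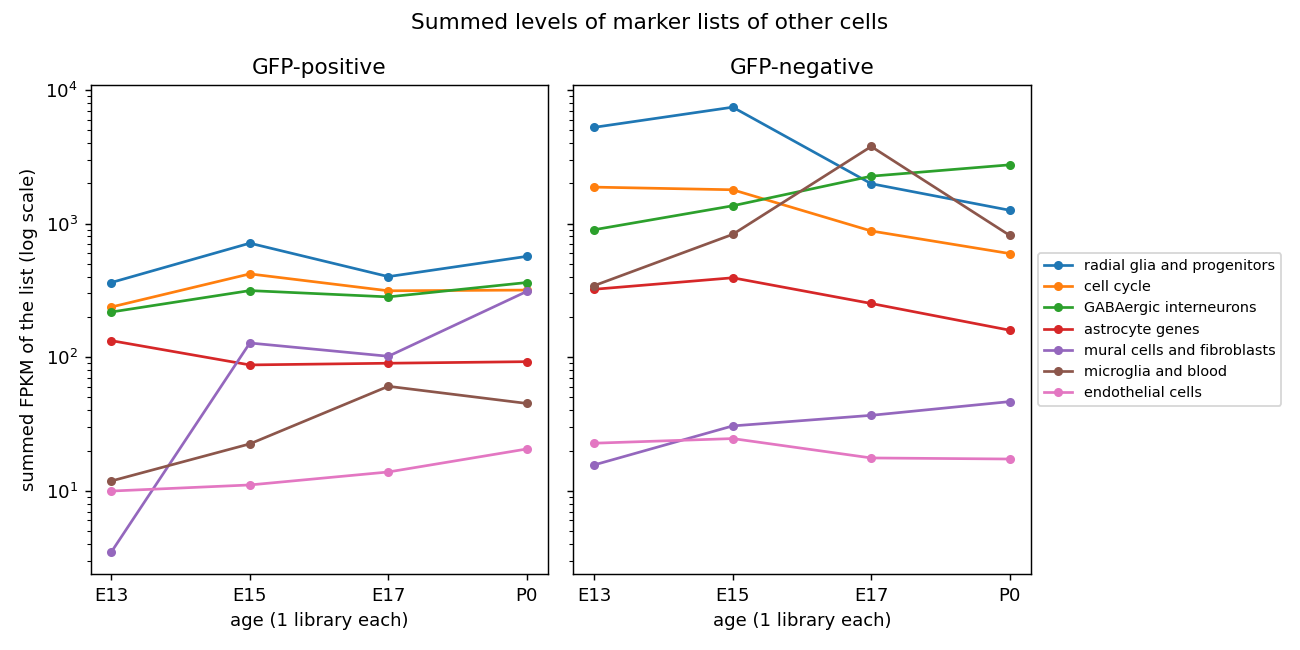
Summed FPKM (log scale) of 7 marker lists of other cells in the GFP-positive and GFP-negative libraries at each age, 1 library per point. The mural and fibroblast sum in GFP-positive cells is 3.49 FPKM at E13 and between 102 and 311 FPKM later, the widest step among these lists.

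The other-cell lists held 1 of the 336 rows that were at least 2-fold higher at E13. They held 19 of the 345 rows that were at least 2-fold lower, which left 326. The share of these lists over all rows was not computed. The part of other cells in those 326 rows was not tested. Of the 345 rows, 223 had a higher mean over the later ages in GFP-positive than in GFP-negative libraries, and 122 did not. A higher GFP-positive mean was also found in 104 of the 336 rows that were at least 2-fold higher. The later GFP-positive values helped choose these rows. Both counts of a higher GFP-positive mean are thus set in part by the rule and do not tell which cells the RNA came from. Neither was computed over all rows. Tmem132b, a transmembrane protein gene, was at 1.53, 17.2, 59 and 57.7 FPKM in reporter cells, set against 27.4, 30.9, 11.4 and 8.63 FPKM in GFP-negative cells, and Pde3a, a phosphodiesterase, was at 1.15, 11.5, 21.8 and 18.1 and 0.556, 2.4, 1.35 and 1.18 FPKM. For both, the later GFP-positive values of E17 and P0 were above all GFP-negative values of those ages. Bcl2l11, a promoter of apoptosis, was at 2.36, 15.6, 31.1 and 26.6 FPKM, while in GFP-negative cells E13 was the highest (15.3, 10.1, 7.02 and 6.83 FPKM).

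Proneural genes gave different orders in the 2 populations. Of 14 that reached 5 FPKM in GFP-positive cells, 9 were lower at E13 and 4 were higher, beside 28.3% and 28.7% of all rows. The median log2 difference was -0.45 over 19 tested genes. In GFP-negative cells 12 of 19 were higher and 1 was lower, beside 28.7% and 27.1% of all rows there, with a median of 0.78. Neurog2, a basic helix-loop-helix factor of glutamatergic progenitors, was at 2.86, 13.8, 7.75 and 10.9 FPKM in reporter cells, set against 69.2, 57.9, 9.76 and 3.8 FPKM in GFP-negative cells. Neurod6, a factor of postmitotic glutamatergic neurons, was at 179.6, 451, 286 and 185 FPKM, highest at E15, and Sox11, an SRY-box factor of newborn neurons, was at 295, 500.0, 489 and 403 FPKM. Dll1, a Notch ligand, had the reverse order, at 52.9, 32.3, 19.8 and 11.8 FPKM, and was highest at E13 in GFP-negative cells too (89.1, 19.8, 9.43 and 8.77 FPKM).

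The GFP-negative libraries played no part in the rule that sorted rows into higher and lower at E13, although some of the genes named were picked for their direction there. Among 10095 rows that reached 5 FPKM in both populations, 28.7% were higher and 27.1% lower at E13 in GFP-negative cells. Of 2939 such rows that were higher at E13 in GFP-positive cells, 38% were also higher in GFP-negative cells and 20.1% were lower. Of 2895 that were lower, 35% were also lower and 21.3% were higher. With a gap of at least 2-fold in GFP-positive cells the shares were 41% and 18.1% for 227 higher rows, and 34.2% and 23% for 278 lower rows. Rows that matched in direction were more frequent, and those in the opposite direction less frequent, than over all rows, but most rows with a direction in GFP-positive cells did not have the same one in GFP-negative cells. In limma, 54 rows (0.36%) were called in GFP-negative cells, 50 higher (0.333%) and 4 lower (0.0267%). For the difference between the populations 77 rows (0.513%) were called, 37 higher (0.247%) and 40 lower (0.267%). When the libraries were paired by age, limma called 0 rows for that difference, with 1304 at an unadjusted p under 0.05, and without pairing it called 0 rows among those with a mean of at least 5 FPKM, with 709 unadjusted. When only rows of single protein-coding genes were tested, 1 was called in each of the 3 contrasts, and Zpr1 was not among them.

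Among all 3217 higher and 3172 lower rows, the gap to the nearest later library exceeded the whole range of the 3 later ones in 35.7% and 32.4%. The values ran in 1 direction at every age in 26.8% of the higher and 23.9% of the lower rows. With a gap of at least 2-fold the shares were 20.8% and 28.4%. Over all 11200 rows the share was 14.5%, and a row of 1 direction is always highest or lowest at E13. Except for the share over all rows, these shares describe rows chosen on the same values. Between E13 and E15 alone the median log2 change was 1.99 for the higher and -1.56 for the lower rows of at least 2-fold. Of these higher rows 89 were at 0 in all later GFP-positive libraries, and 52 of the lower rows were at 0 at E13. At the edge of the 5 FPKM limit, Tmco3 was just inside as higher at E13 (5.003, 2.806, 3.546 and 2.043 FPKM) and Aldh7a1 just outside (4.998, 2.571, 4.488 and 2.232 FPKM). On the other side, Lpar2 was just inside as lower (2.716, 3.325, 4.778 and 5.003 FPKM) and St3gal6 just outside (0.6535, 1.433, 4.999 and 2.643 FPKM).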

How the data were processed

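Per the labels' protocols, single-end libraries were made from total RNA of sorted olfactory bulb cells. The authors deposited FPKM per gene in 1 table of 42084 rows. The submitters' processing notes name TopHat2 2.0.9, Cufflinks 2.2.1, CASAVA 1.8.2 and build mm10. The sources used here give no annotation, strand setting or filters. A group of 14 rows that the authors had set apart was not used. Positions are from GENCODE M21 (GRCm38, the assembly of mm10), where 38111 rows matched in symbol and place. Of the rows, 905 name several genes and 18292 were at 0 in all 8 libraries.

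From the deposited FPKM, log2(FPKM + 1) was computed, and 921 small RNA rows were left out. The 15003 rows whose mean over 8 libraries reached 1 FPKM were tested with limma 3.58.1 in R 4.3.3, in 4 groups (E13 and later, by population), with 4 residual degrees of freedom, a prior variance that follows the mean, 2-sided tests and Benjamini-Hochberg adjusted p-values, at a threshold of 0.05. Labels do not say whether libraries share animals, so p-values measure only the spread between these libraries. The fit was tested on simulated data with 200 of 15003 rows changed. Depth came from low values, of which 85.8% to 88.5% were whole reads within 0.1 read (20% if spread evenly). The scale was set on these same values, so this share is no independent check.

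The members and 33 gene lists were chosen with earlier results of these data known. Genes were named by rule: the markers given, the 15 largest gaps each way, the 4 largest gaps of each list and the 5 largest with the same or the opposite direction in GFP-negative cells, which took 146. A further 28, such as Gap43, Snap25, Fdps and Dcc, were chosen after their values were seen. Predicted, mitochondrial, Y-linked and multi-gene rows were not named. A few list members counted here are not reported by name. Without a known strand setting, overlapping and antisense genes may share reads, as may near-identical copies. Promoter sequences are from RefSeq.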

Additional observations from a re-analysis of the deposited data

Results flagged for a closer look

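Cpne4, a calcium-dependent membrane-binding protein, was flagged because E13 lay apart from every later library by at least 2-fold in opposite directions in the 2 populations. It measured 9.39, 1.7, 0.938 and 1.85 FPKM in reporter (GFP-positive) cells, a gap of 1.86 on the log2 scale, against 5.52, 13.2, 41.2 and 49.7 FPKM in GFP-negative cells, a gap of -1.13. The difference between the populations did not pass limma (adjusted p = 0.522).

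Cacna1g, a T-type calcium channel, was flagged in the same way. It measured 5.51, 1.97, 0.169 and 0.168 FPKM in reporter (GFP-positive) cells, a gap of 1.13, against 0.645, 2.68, 13.8 and 6.81 FPKM in GFP-negative cells, a gap of -1.16, with an adjusted p of 0.661 (limma) for the difference.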

How the results depend on the processing

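Of 173 named genes tested for the GFP-positive difference, none changed sign in 2901 recomputed values. Zpr1 lost its call under 11 settings, and 11 other genes, such as B3glct, Etv5 and Cald1, passed under at least 1 setting. The count of calls in GFP-positive cells (50) became 316 with no filter, 28 with a mean of at least 5 FPKM, 1 for single protein-coding genes, 0 for those above 0 in all 8 libraries (957 at an unadjusted p under 0.05) and 104 with the GFP-positive libraries alone. In GFP-negative cells (54) it became 357 with no filter, 1 and 0 for the protein-coding sets (1044 unadjusted) and 93 with the GFP-negative libraries alone. For the difference between populations (77) it became 479 with no filter, 0 with a mean of at least 5 FPKM, 1 and 0 for the protein-coding sets (805 unadjusted) and 0 with age as a block. The set of protein-coding genes above 0 was chosen after seeing the data. Leaving out 1 later library at a time gave 52 to 67 calls in GFP-positive cells, 53 to 97 in GFP-negative cells and 83 to 121 for the difference, the highest of the last 2 without the E15 GFP-negative library. Rows that met the rule numbered 3745 to 3951 higher and 3524 to 4160 lower with 1 library left out, 796 and 827 at a gap of 1.5-fold, and 336 and 345 at 2-fold. Mural and fibroblast markers lower at E13 numbered 4 to 9, with 4 without P0, since fewer reached 5 FPKM. For the upper-layer list the median log2 difference was -0.33 with a pseudocount of 5, for the mural list -1.05, for the radial glia list -0.27 and for the mitral and tufted list 0.38, and without P0 the neurite list median was 0.15. The causes of the other shifts were not tested. No paired analysis was possible within a population because there is 1 library per age. Between populations, the pairing by age given above was run. The E13 libraries could not be left out, since each is alone in its group.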
